A study of Mus musculus with 24 samples.

Results

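The 40 mouse probes described here stood modestly above their vehicle pool in wild type mouse liver 12 h after pregnenolone 16α-carbonitrile (PCN), and they were followed into livers that lacked the constitutive androstane receptor (CAR), the pregnane X receptor (PXR) or both. The array was a targeted spotted design with 284 mouse probes. Of these, 229 were seen above background on at least 3 of the 6 wild type arrays, 17 probe numbers named in the rule were dropped, and 212 candidates were left. The 40 with the highest mean background-subtracted, median-centred log2 ratio on the wild type arrays were taken. The members were thus chosen by their wild type ratios, so the wild type values below are a description and carry no test. All 40 were also seen on the arrays of the other genotypes, and all 40 passed the filter on dim probes that left 236 of the 284 for testing.

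PCN is a synthetic steroid that activates rodent PXR. PXR and CAR are nuclear receptors of the liver that bind DNA together with a retinoid X receptor and switch on enzymes and transporters for foreign compounds. Their best known targets are cytochrome P450 genes of the Cyp3a and Cyp2b families. Other targets supply what those enzymes need, such as haem, or move drugs and bile acids into and out of the hepatocyte.

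The mice were male C57BL/6J of 9 to 12 weeks, wild type, CAR-deficient, PXR-deficient or CAR/PXR-deficient. PCN was given at 40 mg/kg into the peritoneum, and vehicle was 5% DMSO in corn oil. Each of the 24 arrays, 6 per genotype, carried RNA of PCN-treated liver in Cy5 and RNA of a pool labelled as the same genotype in Cy3, so a log2 ratio above 0 means more signal after PCN. The Cy3 pool is named untreated by its source label, while its treatment text has the animals injected with vehicle, and "vehicle pool" is used below. They also state that RNA of 6 replicates was pooled, without saying whether this covers the Cy5 RNA; if it does, the 6 arrays of a genotype are repeats of 1 pool. The alleles behind the deficiencies are not given in the labels, which also do not tie an array to an animal, and the p-values therefore measure array-to-array spread, which may be technical. A pool is shared by the 6 arrays of its genotype, and a departure of the pool and an effect of PCN cannot be told apart within a genotype. The same holds between genotypes, since each difference sets the pool of a genotype against that of another. The p-values and intervals hold no spread between pools. In whole liver, fewer cells of a type and less RNA per cell cannot be told apart either.

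Between 158 and 243 of the mouse probes were seen on an array, 11.8% to 27.4% of spots carried a flag, and precision is limited by there being 6 arrays per genotype. The probes for the receptors themselves were dim. The Nr1i3 (CAR) probe had a mean Cy5 level of 8.01 in wild type, 7.69 in CAR-deficient and 7.73 in CAR/PXR-deficient livers on the log2 scale. The Nr1i2 (PXR) probe was at 7.71 in wild type, 7.90 without PXR and 8.35 without both receptors, so it was not lower where PXR is labelled as missing. Where in each gene these probes lie is not given in the sources used here, and they check no label. Of 13 markers of liver cell types, only the hepatocyte gene Apoa1 has a tested probe, so other cell types could not be followed.

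The gene table for this array names 30 of the 40 members. They comprise 11 nuclear receptors, 7 members of the cytochrome P450 family, 6 genes of sterol control and synthesis, 2 transporters, and 1 each of haem synthesis (Alas1), acetyl-CoA synthesis (Acss2), apolipoproteins (Apoa1) and peptidyl-prolyl isomerases (Ppia). These groups were drawn up after the values were seen. The other 10 are given by probe ID. Each member has 3 spots per array. The members were brighter than the rest, with a median log2 level over both channels of 8.99 against 8.23 for the 196 other tested probes. Their probe numbers lie low: 37 of 40 (92.5%) have a number of at most 160, a cut chosen after the values were seen, against 83 of the 172 other candidates (48.3%).

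The 250 bases before the start of 3 members are shown. Slco1a4 and Alas1 were taken because they lead the named members and have known links to PXR and CAR. Apoa1 was taken because its window holds a letter run that was searched. The members were chosen by their wild type ratios, and whether they share regulation was not tested. Sequences are from RefSeq on GRCm38.p6, read 5′ to 3′ on the gene's strand. Capitals mark AGTTCA or AGGTCA, the half-site letters known for such receptors, or their reverse complements TGAACT and TGACCT. The Slco1a4 stretch is chr6:141856221-141856470 on the minus strand, that of Alas1, the first of its 2 listed starts, is chr9:106247955-106248204 on the minus strand, and that of Apoa1 is chr9:46228380-46228629 on the plus strand.
Slco1a4: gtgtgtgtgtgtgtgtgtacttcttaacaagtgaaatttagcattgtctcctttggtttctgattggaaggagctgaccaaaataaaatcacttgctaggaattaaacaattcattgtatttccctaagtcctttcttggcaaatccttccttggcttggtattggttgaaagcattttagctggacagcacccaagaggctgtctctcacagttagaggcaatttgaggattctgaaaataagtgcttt
Alas1: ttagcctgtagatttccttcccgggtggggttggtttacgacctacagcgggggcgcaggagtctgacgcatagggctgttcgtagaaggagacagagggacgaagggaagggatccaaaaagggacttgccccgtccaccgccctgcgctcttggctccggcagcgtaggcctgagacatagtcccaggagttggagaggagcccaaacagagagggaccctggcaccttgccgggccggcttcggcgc
Apoa1: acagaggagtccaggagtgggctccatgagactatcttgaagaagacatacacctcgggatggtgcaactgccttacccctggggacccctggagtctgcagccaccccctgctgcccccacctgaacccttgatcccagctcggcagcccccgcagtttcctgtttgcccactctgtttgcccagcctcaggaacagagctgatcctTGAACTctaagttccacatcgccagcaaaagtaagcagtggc
The promoter table holds 26 of the 30 named genes, with 35 starts. On either strand, AGTTCA was present at 5 of the 35 starts (in Apoa1, Rarb, Rxrg, Slc10a2 and Thrb) and in 11.8% of all 32851 promoters of the table. AGGTCA was present at 3 of the 35 (in Nr5a2, Rxrg and Thrb) and in 14% of all promoters. The motifs do not overlap each other in letters, and a match is a run of letters, not a site. Neither is in the windows shown for Slco1a4 and Alas1, which says only that these letters are not in these 250 bases.

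In wild type livers, where the members were chosen, the value of the rule ran from 0.988 ± 0.60 (SD, n = 6) for Slco1a4 down to 0.226 ± 0.16 for ST_Mm_095. The probes just inside and just outside lay close together: Rarb at 0.234 ± 0.26 and ST_Mm_147 at 0.231 ± 0.16 were in, and Fdps at 0.220 ± 0.12 and Lipa at 0.218 ± 0.09 were out. All further ratios are log2 Cy5/Cy3 after normexp background correction and loess. On that scale all 40 means were above 0, with a median of 0.22 against 0.00 for all 236 tested probes, and 29 of the 40 were above 0 on every wild type array. An adjusted p below 0.05 in limma was reached by 36 of the 40 and by 21.2% of all tested probes in the upward direction. That count follows from the choice and nothing is read from it.

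**Figure D1:**
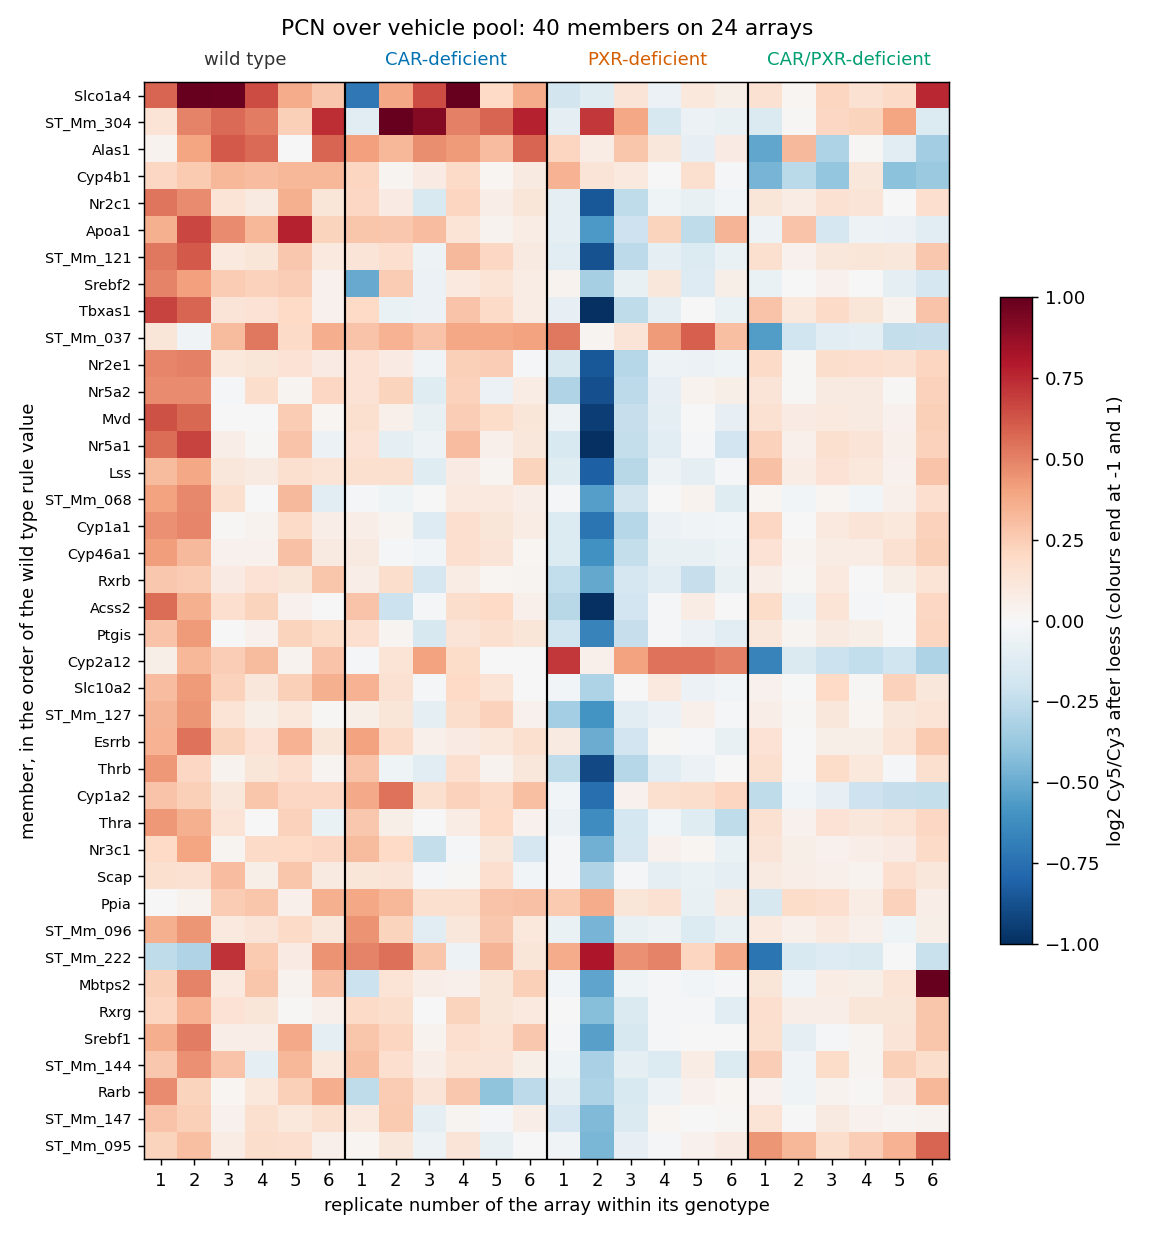
Colour map of the log2 Cy5/Cy3 ratio after loess of the 40 members (vertical axis, in the order of the wild type rule value) on the 24 arrays (horizontal axis, replicate number within genotype); red is above the vehicle pool, blue below, and colours end at -1 and 1. PXR-deficient 2 is the blue column, wild type 1 and 2 are the reddest wild type columns, and Slco1a4, Alas1, Cyp2a12, ST_Mm_037, ST_Mm_222 and ST_Mm_304 break the column pattern.

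The rise in wild type was uneven between arrays. The median of the 40 members was 0.34 in wild type 1 and 0.42 in wild type 2, and between 0.12 and 0.20 in wild type 3 to 6. Taken over wild type 3 to 6 alone, all 40 means stayed above 0, from 0.06 to 0.57 with a median of 0.15. The rule applied without replicates 1 and 2 would keep 28 of the 40 members. With 1 array left out it would keep 34 to 39, and applied to the loess values it would keep 35.

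The control spots of the array have IDs that start with ST_Cr, and they had no weight in the loess fit. After loess they moved with the members on the outlying arrays. Their median after loess was 0.33 in wild type 1 and 0.31 in wild type 2, the 2 highest of the 24 arrays. It was -0.98 in PXR-deficient 2, -0.29 in PXR-deficient 1 and -0.24 in PXR-deficient 3, the 3 lowest. The members had their 2 highest medians and their 3 lowest medians on the same 5 arrays. With median centring in place of loess the order of the controls changed. They were then at 0.19 and 0.13 in wild type 1 and 2, below 0.48 in CAR/PXR-deficient 6. In PXR-deficient 1, 2 and 3 they were at -0.34, -1.23 and 0.10. On the loess scale the member median in PXR-deficient 2 was -0.52, while the 196 other probes had a median of 0.09. On that array 21 of the 40 members (52.5%) lay below -0.5, against 15 of the 196 others (7.65%), and this cut was chosen after the values were seen. The part of the control shift in the members' ratios was not tested, and the counts and the calls of named genes that this array changes are given below with and without it.

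**Figure D2:**
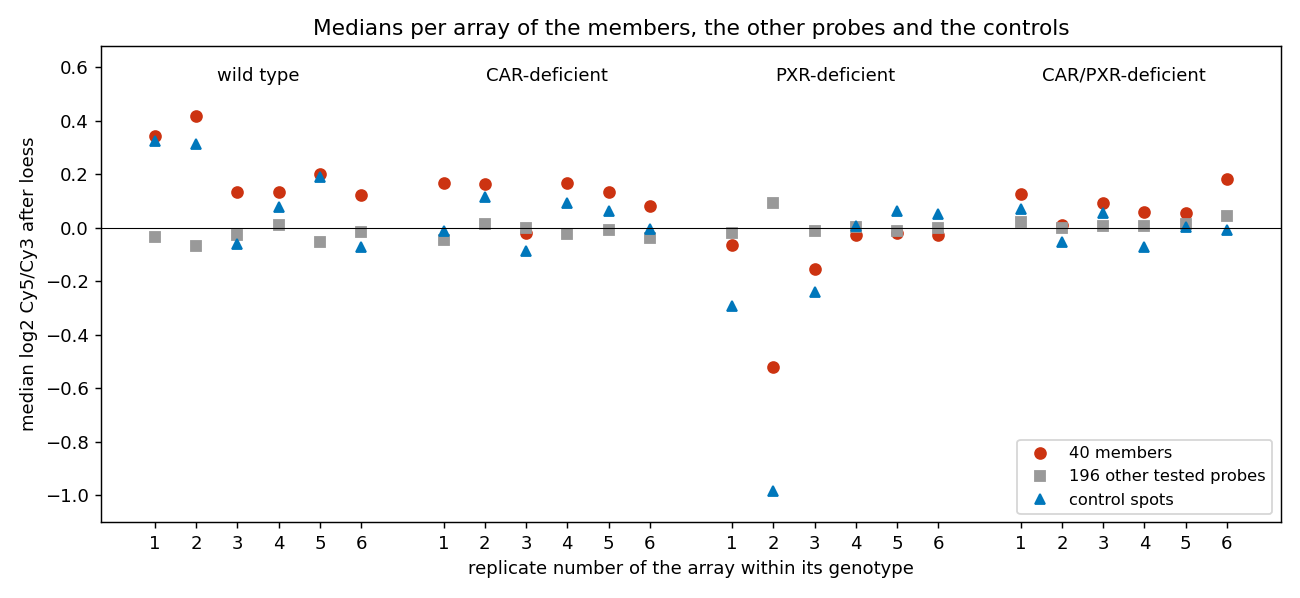
Median log2 Cy5/Cy3 after loess (vertical axis) on each array (horizontal axis, replicate number within genotype) of the 40 members (circles), the 196 other tested probes (squares) and the control spots (triangles). Members and controls are both high in wild type 1 and 2 and both low in PXR-deficient 2, where the members are at -0.52 and the controls at -0.98.

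Across the deficient genotypes, the mean of the 6 array medians of the members was 0.12 ± 0.07 (SD, n = 6) in CAR-deficient livers, -0.13 ± 0.20 in PXR-deficient livers and 0.09 ± 0.06 in CAR/PXR-deficient livers, beside 0.23 ± 0.13 in wild type. Without PXR-deficient 2 the PXR-deficient value was -0.06 ± 0.06 (n = 5). The array medians ran from -0.02 to 0.17, from -0.52 to -0.02 and from 0.01 to 0.18 in the 3 deficient genotypes. On the loess scale all 6 PXR-deficient medians were thus below 0 and all 6 CAR/PXR-deficient medians above it. The sign depended on the scaling: on the scale of the member rule PXR-deficient 1 was at 0.02, and with centring on the control probes the members' median in PXR-deficient livers was 0.01, with 22 of 40 above 0 and all tested probes at 0.10. Of the 40 members, 24 passed the test in at least 1 of the 3 genotypes, 3 of them in more than 1, and 16 in none. The same counts were not taken over all tested probes, so nothing about the members is read from them.

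In CAR-deficient livers 6 of the 40 members rose and none fell (limma, adjusted p below 0.05 over 236 probes), and 10 rose without PXR-deficient 2. Leaving out that array does not alter a CAR-deficient ratio but changes the spread shared by all genotypes in the fit. Among all tested probes 6.78% rose and 10.2% fell, and the members' median was 0.10 against -0.01. The 6 found with all arrays were Alas1, Cyp1a2, Ppia and the unnamed ST_Mm_304, ST_Mm_037 and ST_Mm_096. In PXR-deficient livers 4 members rose and 14 fell, beside 19.5% and 19.5% of all probes, with a median of -0.12 against -0.03. Without PXR-deficient 2, 3 members rose and 1 fell, and the members' median was -0.06. In CAR/PXR-deficient livers 1 member rose and 3 fell, beside 10.6% and 11.9% of all probes, with a median of 0.09 against 0.04. Without PXR-deficient 2 the counts were 4 and 4. The shares of all probes are from the fit with all arrays, so the counts without PXR-deficient 2 have no share beside them.

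Slco1a4, the organic anion transporter also known as Oatp2, led the members. Its 6 wild type ratios ran from 0.27 to 1.61 with a median of 0.62, all above 0. They ran from -0.72 to 1.03 with a median of 0.38 in CAR-deficient livers, and from -0.18 to 0.13 with a median of 0.00 in PXR-deficient livers. The PXR-deficient arrays straddled 0, and the CAR-deficient arrays spread more widely. Slco1a4 was chosen for high wild type ratios, so its distance from the wild type range is not read. The probe was dim, with Cy3 above background on 4 of 6 wild type, 2 of 6 CAR-deficient and 3 of 6 PXR-deficient arrays, and Cy5 on 6, 4 and 3. Neither of these deficient genotypes passed the test, with a mean of 0.32 ± 0.58 (SD, n = 6; adjusted p = 0.149) in CAR-deficient livers and -0.01 ± 0.13 (adjusted p = 0.954) in PXR-deficient livers. The difference between these 2 was 0.33 with a 95% interval from -0.11 to 0.78. The vehicle channel of the CAR/PXR-deficient arrays was not above background on any array, and Cy5 was on 3 of 6, so no ratio is given there.

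Alas1, the rate-limiting enzyme of haem synthesis in liver, was high with CAR missing as well as in wild type. Its wild type ratios ran from -0.01 to 0.61 with a median of 0.48, and its CAR-deficient ratios from 0.31 to 0.58 with a median of 0.42. They ran from -0.08 to 0.28 in PXR-deficient livers (median 0.10) and from -0.52 to 0.32 in CAR/PXR-deficient livers (median -0.21). Every CAR-deficient array lay above every PXR-deficient array. The rise in CAR-deficient livers was 0.42 ± 0.10 (SD, n = 6), or 1.34-fold (limma, adjusted p = 9.17e-04). It exceeded the CAR/PXR-deficient value by 0.58 (95% interval 0.33 to 0.83, adjusted p = 7.30e-04), whereas its difference from PXR-deficient livers, 0.31 (0.06 to 0.56), did not pass (adjusted p = 0.0536). Centred on the control probes, the CAR-deficient rise of Alas1 had an adjusted p of 0.063. The difference of CAR-deficient from CAR/PXR-deficient livers did not pass under 1 of 34 alternatives, with a limma adjusted p of 0.0630. Mean Cy5 levels were 9.83 and 9.63 in these genotypes and mean Cy3 levels 9.40 and 9.78, so both channels differed.

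Cyp1a2, a liver P450 of aromatic amine and caffeine metabolism, had a similar order. Its ratios ran from 0.11 to 0.28 in wild type (median 0.22) and from 0.16 to 0.55 in CAR-deficient livers (median 0.26). In PXR-deficient livers 5 arrays lay between -0.03 and 0.22 and replicate 2 at -0.75. All 6 CAR/PXR-deficient arrays were below 0, from -0.25 to -0.03 (adjusted p = 0.125, and 0.00589 without PXR-deficient 2). The CAR-deficient rise was 0.30 ± 0.14 (n = 6, limma, adjusted p = 8.94e-03), and CAR-deficient livers exceeded CAR/PXR-deficient livers by 0.47 (0.24 to 0.71, adjusted p = 2.98e-03). They exceeded PXR-deficient livers by 0.33 (adjusted p = 0.0301), and by 0.19 without PXR-deficient 2 (adjusted p = 0.053). That difference also missed without CAR-deficient replicate 1 or 2 (adjusted p = 0.0569 and 0.0695). The CAR-deficient rise had an adjusted p of 0.051 without CAR-deficient replicate 2 and of 0.366 in the authors' deposited value table. Mean Cy5 levels were 11.17 in CAR-deficient and 11.41 in CAR/PXR-deficient livers, and mean Cy3 levels 10.87 and 11.58. That contrast thus lay in the vehicle pools, which have no replicate.

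The unnamed ST_Mm_304 followed Slco1a4 in the wild type order. Its ratios there ran from 0.14 to 0.74 with a median of 0.51. In CAR-deficient livers they ran from -0.10 to 1.36 with a median of 0.68, and 5 of 6 arrays lay above 0.4. In PXR-deficient livers 4 of 6 arrays lay below 0, and the highest, replicate 2, was at 0.71. The CAR-deficient mean was 0.67 ± 0.49 (n = 6, limma, adjusted p = 4.61e-04), 0.55 above PXR-deficient livers (0.18 to 0.92, adjusted p = 0.0244) and 0.58 above CAR/PXR-deficient livers (0.21 to 0.95, adjusted p = 0.0195). Without CAR-deficient replicate 2 neither difference passed (adjusted p = 0.0623 and 0.0628). The second also missed without CAR-deficient replicate 3 or CAR/PXR-deficient replicate 1 or 6, with an adjusted p from 0.0512 to 0.0531. For CAR- and CAR/PXR-deficient livers, mean Cy5 levels were 9.32 and 9.45, and mean Cy3 levels of the unreplicated vehicle pools 8.65 and 9.36.

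Cyp2a12, a P450 that hydroxylates steroids in mouse liver, was highest without PXR. Its wild type ratios ran from 0.04 to 0.33 (median 0.26), its CAR-deficient ratios from -0.01 to 0.40 (median 0.07), its PXR-deficient ratios from 0.05 to 0.71 (median 0.52) and its CAR/PXR-deficient ratios from -0.67 to -0.14 (median -0.23). All 6 PXR-deficient arrays were above 0 and all 6 CAR/PXR-deficient arrays below it. It rose in PXR-deficient livers by 0.46 ± 0.22 (n = 6), or 1.37-fold (limma, adjusted p = 3.17e-05). It fell in CAR/PXR-deficient livers, to -0.30 ± 0.19 (adjusted p = 2.71e-03), a fall that was -0.15 with median centring (adjusted p = 0.352). PXR-deficient livers exceeded CAR/PXR-deficient livers by 0.76 (0.55 to 0.97, adjusted p = 1.56e-06). Mean Cy5 levels were 10.42 and 10.39 in these genotypes, and mean Cy3 levels of their vehicle pools were 9.96 and 10.69. The contrast thus lay mostly in the Cy3 channel, whose pools have no replicate. CAR-deficient livers lay below PXR-deficient livers, at -0.34 (-0.55 to -0.13, adjusted p = 0.0138). This last difference did not pass under 3 of 34 alternatives, with a limma adjusted p up to 0.221.

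Unnamed probes ST_Mm_037 and ST_Mm_222 shared the contrast between single and double deficiency. ST_Mm_037 rose in CAR-deficient livers, 0.35 ± 0.05 (n = 6, limma, adjusted p = 9.17e-04), and in PXR-deficient livers, 0.33 ± 0.23 (adjusted p = 7.11e-04). It was below 0 on all 6 CAR/PXR-deficient arrays, from -0.56 to -0.10, and fell there, -0.24 ± 0.17 (adjusted p = 0.0120, and 0.0791 without CAR/PXR-deficient replicate 1). That fall did not pass under 4 of 34 alternatives, with a limma adjusted p up to 0.291. Both single deficiencies exceeded the double deficiency in this probe, CAR-deficient and PXR-deficient livers in turn by 0.59 (0.38 to 0.79) and 0.57 (0.37 to 0.78). ST_Mm_222 had the widest wild type spread of these, from -0.30 to 0.72, and rose in PXR-deficient livers, 0.45 ± 0.20 (adjusted p = 1.80e-03). It was -0.23 ± 0.25 in CAR/PXR-deficient livers, 0.68 below PXR-deficient livers (adjusted p = 8.70e-04). In PXR- and CAR/PXR-deficient livers the mean Cy5 levels of ST_Mm_222 were 8.90 and 9.09, and its mean Cy3 levels 8.44 and 9.32. For ST_Mm_037, in CAR-, PXR- and CAR/PXR-deficient livers, Cy5 was at 8.81, 9.21 and 8.82, and Cy3 at 8.46, 8.88 and 9.06. The vehicle pools in Cy3 have no replicate.

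Cyp4b1, a P450 of fatty acid and furan oxidation found mainly outside the liver, was the steadiest member in wild type, from 0.21 to 0.33. It stayed near 0 in both single deficiencies, 0.10 ± 0.08 and 0.12 ± 0.13, and fell in CAR/PXR-deficient livers, -0.30 ± 0.21 (n = 6, limma, adjusted p = 2.63e-04). There 5 of 6 arrays lay between -0.46 and -0.27 and replicate 4 at 0.11. CAR/PXR-deficient livers lay below CAR-deficient livers by 0.40 (0.23 to 0.57) and below PXR-deficient livers by 0.42 (0.25 to 0.58). Neither difference passed with median centring (adjusted p = 0.0584 and 0.0533) or in the authors' deposited value table (0.154 and 0.0528), nor did the first with control centring (0.189). The fall of Cyp4b1 was -0.21 in the authors' deposited value table, with an adjusted p of 0.109. Its mean Cy5 levels were 8.51, 8.53 and 8.52 in CAR-, PXR- and CAR/PXR-deficient livers. The mean Cy3 levels of the vehicle pools were 8.40, 8.41 and 8.81, so the contrast lay in pools that have no replicate.

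ST_Mm_095, the last member by rank, rose in CAR/PXR-deficient livers, 0.35 ± 0.14 (n = 6, limma, adjusted p = 2.83e-05), with all 6 arrays between 0.17 and 0.58. It was 0.02 ± 0.08 without CAR and -0.08 ± 0.19 without PXR, and these livers differed from CAR/PXR-deficient livers by -0.33 (-0.50 to -0.16) and -0.43 (-0.60 to -0.26). Mean Cy5 levels were 8.50, 8.37 and 8.88 in CAR-, PXR- and CAR/PXR-deficient livers, and mean Cy3 levels 8.48, 8.45 and 8.53. Here the contrast lay mostly in Cy5. Ppia, cyclophilin A, which is often used as a reference gene, rose in CAR-deficient livers, 0.27 ± 0.09 (adjusted p = 1.31e-03), with all 6 arrays above 0.15. It was 0.15 ± 0.15 in PXR-deficient livers (adjusted p = 0.0380, and 0.0601 to 0.176 without replicate 1, 2, 3 or 4), and none of its 3 differences between deficient genotypes passed.

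**Figure D3:**
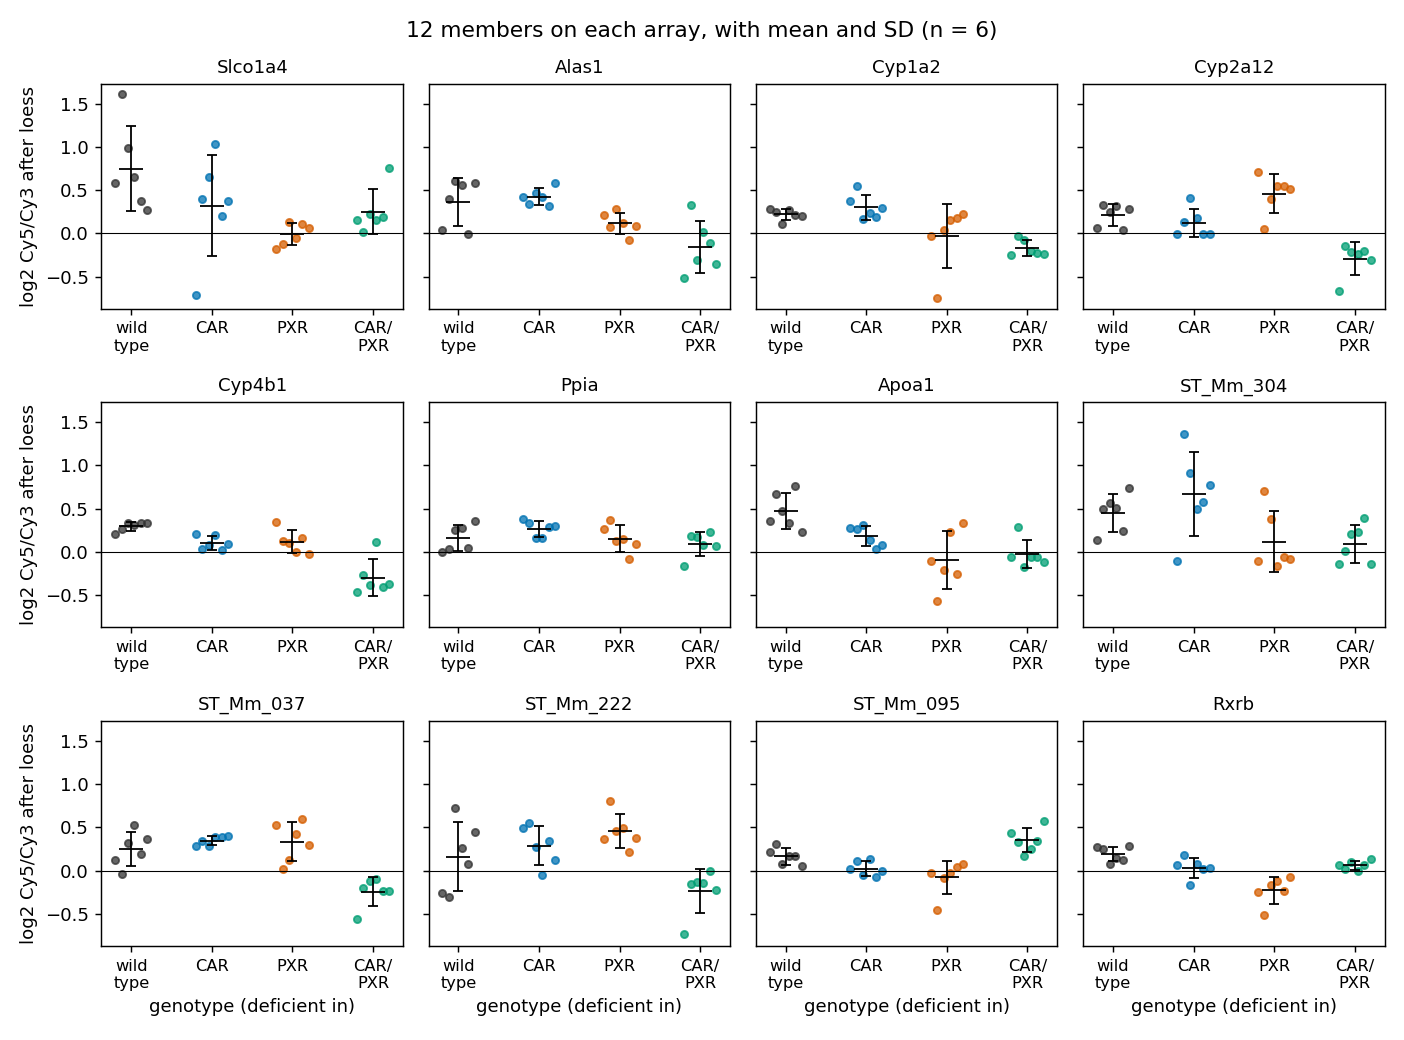
Log2 Cy5/Cy3 after loess (vertical axis) of 12 members on each array, by genotype (horizontal axis); points are arrays, the black tick is the mean and the bar the SD of 6 arrays. Alas1 and Cyp1a2 are above 0 on all CAR-deficient arrays, Cyp2a12 is highest in PXR-deficient and below 0 on all CAR/PXR-deficient arrays, and Slco1a4 is near 0 in PXR-deficient livers. The CAR/PXR-deficient points of Slco1a4 have a vehicle channel not above background and are not read.

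Apoa1, the main protein of high-density lipoprotein and the hepatocyte marker on this array, ran from 0.23 to 0.77 in wild type with a median of 0.41. It was 0.18 ± 0.12 in CAR-deficient livers, -0.09 ± 0.33 in PXR-deficient livers and -0.03 ± 0.16 in CAR/PXR-deficient livers (n = 6 each), and passed the test in none of the 3. The other transporter, Slc10a2, carries bile acids back from the ileum and bile duct. It was 0.28 ± 0.11 in wild type and did not pass elsewhere with all arrays, at 0.14 ± 0.14, -0.05 ± 0.14 and 0.10 ± 0.10. Without PXR-deficient 2 it passed as higher in CAR-deficient livers (limma, adjusted p = 0.0395). The Slc10a2 probe was dim there, with Cy3 above background on 2 of 6 arrays and Cy5 on 4, so that call is not read. In wild type Cy3 was above background on 3 of 6 arrays and Cy5 on 5.

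The 11 nuclear receptors formed the largest named group. They comprise the orphan receptors Nr2c1 (TR2), Nr2e1 (TLX) and Esrrb, Nr5a1 (SF-1) and Nr5a2 (LRH-1), the retinoid receptors Rxrb, Rxrg and Rarb, the thyroid hormone receptors Thra and Thrb, and the glucocorticoid receptor Nr3c1. Rxrb and Rxrg encode partners of PXR and CAR. In wild type their means lay between 0.15 and 0.29. With all arrays, none of the 11 passed in CAR-deficient or CAR/PXR-deficient livers, where their medians were 0.08 and 0.11. Without PXR-deficient 2, Esrrb (adjusted p = 0.0261) and Rxrg (0.0261) passed as higher in CAR-deficient livers, and Nr2e1 (0.0449) and Rxrg (0.0179) in CAR/PXR-deficient livers. In PXR-deficient livers 7 of the 11 fell, beside 14 of the 40 members and 19.5% of all tested probes. All 11 means were below 0, from -0.29 (Nr5a1) to -0.09 (Rarb). Only 8 of 11 were below 0 when arrays were centred on the control probes. Without PXR-deficient 2 the 11 means ran from -0.17 (Rxrb) to -0.04 (Esrrb). The 7 were Nr2c1, Nr2e1, Nr5a1, Nr5a2, Rxrb, Thra and Thrb. As a group they lay lowest on the array on which the control spots lay lowest.

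Rxrb was the receptor whose fall did not need that array. Its PXR-deficient ratios ran from -0.51 to -0.08 with a median of -0.20, all below 0. The mean was -0.23 ± 0.16 (n = 6, limma, adjusted p = 1.06e-03). Without PXR-deficient 2 it was -0.17 ± 0.07 (n = 5, adjusted p = 0.00673), and Rxrb was then the 1 member that fell. Rxrb differed from CAR-deficient livers by 0.26 (0.11 to 0.40, adjusted p = 9.04e-03) and, without PXR-deficient 2, by 0.20 (adjusted p = 0.021). When arrays were centred on their medians or on the controls, no member fell, and Rxrb had an adjusted p of 0.114 and 0.593.

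The thyroid hormone receptors show the more common course. Thrb ranged from 0.02 to 0.43 in wild type, from -0.90 to 0.00 in PXR-deficient livers and from -0.02 to 0.18 in CAR/PXR-deficient livers. Its PXR-deficient mean was -0.27 ± 0.33 (n = 6, limma, adjusted p = 8.48e-03), and -0.14 ± 0.12 without replicate 2 (n = 5, adjusted p = 0.0720). Thra was -0.21 ± 0.22 (adjusted p = 0.0122), and -0.13 ± 0.09 without replicate 2 (n = 5, adjusted p = 0.104). The orphan receptor Nr2c1 was -0.22 ± 0.32 (n = 6, limma, adjusted p = 0.0270), with replicate 2 at -0.85 and the other 5 arrays between -0.25 and -0.03. Its mean without that array was -0.10 ± 0.09 (n = 5, adjusted p = 0.234), and it also missed without replicate 3 (adjusted p = 0.0601).

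The 7 P450 family members split. Cyp4b1, Cyp1a2 and Cyp2a12 had courses of their own, as given above. The other 4 are Cyp1a1, which oxidises aromatic hydrocarbons, Cyp46a1, the cholesterol 24-hydroxylase known from brain, Tbxas1, thromboxane synthase, and Ptgis, prostacyclin synthase. All 4 fell in PXR-deficient livers, beside 19.5% of all tested probes, with means from -0.26 (Tbxas1) to -0.20 (Cyp46a1). None of the 4 passed in CAR-deficient or CAR/PXR-deficient livers. Tbxas1 was at -1.06 in PXR-deficient 2 and between -0.25 and 0.00 on the other 5 arrays. Without replicate 2 none of the 4 passed, with an adjusted p from 0.101 (Cyp46a1) to 0.338 (Tbxas1). Tbxas1 also missed without replicate 3 (adjusted p = 0.0697).

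The 6 genes of sterol control and synthesis are the transcription factors Srebf1 and Srebf2, their escort protein Scap, the site-2 protease Mbtps2, and the enzymes Mvd and Lss. In wild type the 5 others ran from 0.17 (Scap) to 0.25 (Mvd). Srebf2 was dim, its vehicle channel not well above background on any wild type array and Cy5 on 4 of 6, so no fold is given for it there. In CAR-deficient livers its vehicle channel was above background on 0 of 6 arrays and Cy5 on 2, and in PXR-deficient livers on 3 and 1. That Srebf2 did not pass in these genotypes is therefore not read as no change. With all arrays, none of the 6 passed in CAR-deficient or CAR/PXR-deficient livers, whereas without PXR-deficient 2 Srebf1 passed as higher in the first (adjusted p = 0.0347) and Lss in the second (adjusted p = 0.0179). In PXR-deficient livers only Lss, lanosterol synthase, fell, -0.23 ± 0.30 (n = 6, limma, adjusted p = 0.0144), and it missed without replicate 2 (adjusted p = 0.127). Mbtps2 was at 1.47 on CAR/PXR-deficient 6, and the group's median was 0.10. Acss2, the cytosolic acetyl-CoA synthetase, was 0.23 ± 0.21 in wild type and passed in no deficient genotype.

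Among the remaining unnamed probes, ST_Mm_121 and ST_Mm_127 fell in PXR-deficient livers. ST_Mm_121 ranged there from -0.87 to -0.07 with a median of -0.12, all 6 arrays below 0. Its mean was -0.26 ± 0.31 (n = 6, limma, adjusted p = 0.0136), and -0.13 ± 0.08 without replicate 2 (n = 5, adjusted p = 0.125). ST_Mm_127 was -0.18 ± 0.24 (adjusted p = 0.0336, and 0.234 without replicate 2). ST_Mm_096 rose in CAR-deficient livers, 0.18 ± 0.19 (adjusted p = 0.0444), where its arrays ran from -0.11 to 0.45. ST_Mm_068, ST_Mm_144 and ST_Mm_147 passed in no deficient genotype.

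Differences between the deficient genotypes were tested directly, though pool and PCN response cannot be told apart in them, since each genotype has its own unreplicated vehicle pool. CAR-deficient livers exceeded PXR-deficient livers in 22 of the 40 members and lay below them in 1, Cyp2a12, beside 18.2% and 14.4% of all tested probes. The 22 include 9 of the 11 nuclear receptors, 4 of the 7 P450 members and 4 of the 6 sterol genes. Without PXR-deficient 2 the counts were 6 and 1, the 6 being Rxrb, Rxrg, Thra, ST_Mm_096, ST_Mm_121 and ST_Mm_304. With the authors' deposited value table or with median centring 1 member differed. PXR-deficient livers lay below CAR/PXR-deficient livers in 20 members and above them in 4, beside 24.2% and 17.4% of all probes. The 4 were Cyp2a12, Cyp4b1, ST_Mm_037 and ST_Mm_222. Without PXR-deficient 2 the counts were 15 and 5, with Cyp1a2 added to the members that were higher. Here too the shares of all probes are from the fit with all arrays. None stands beside the counts without PXR-deficient 2 or under other processing. CAR-deficient livers exceeded CAR/PXR-deficient livers in 7 members and lay below them in 1, beside 11.0% and 11.4% of all probes. The 7 were Alas1, Cyp1a2, Cyp2a12, Cyp4b1, ST_Mm_037, ST_Mm_222 and ST_Mm_304, the 1 was ST_Mm_095, and the same 8 members differed without PXR-deficient 2. These 3 comparisons share their arrays pairwise, and their counts are not independent.

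**Figure D4:**
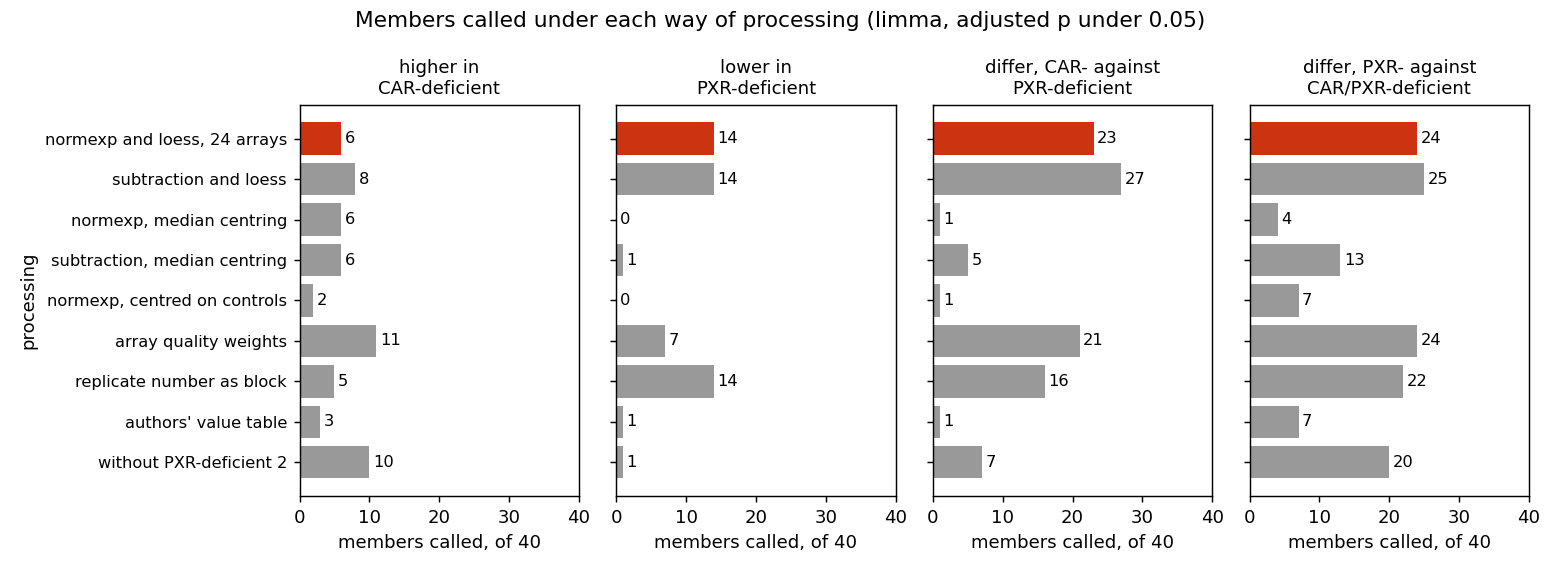
Number of the 40 members that passed limma's adjusted p of 0.05 (horizontal axis) under 9 ways of processing (vertical axis) in 4 comparisons; the top bar is the processing of the report. Members lower in PXR-deficient livers number 14 in the top bar, 0 with median centring or centring on the controls, and 1 without PXR-deficient 2, whereas members higher in CAR-deficient livers number 2 to 11. Shares of all tested probes are not drawn.

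Of 11 genes of drug metabolism on a list written with the design, 6 have a tested probe, among them the members Slco1a4 and Alas1. The others, Abcb1a, Abcc2, Cyp3a11 and Cyp3a13, are among the 17 probe numbers set apart by the rule before the members were taken. In CAR-deficient livers 3 rose and 1 fell. The rises were Cyp3a11, the main PXR-driven P450, at 2.23 ± 0.55, Cyp3a13 at 0.79 ± 0.32, and Alas1. Cyp3a11 and Cyp3a13 could not become members, so the size of their changes beside those of the members is not read. Without PXR, 1 of the 6 rose and 1 fell, and the same counts held without both receptors. Abcc2, a canalicular exporter of conjugates, rose in PXR-deficient livers, 0.40 ± 0.10 (limma, adjusted p = 2.90e-06), and fell in CAR/PXR-deficient livers, -0.34 ± 0.12 (adjusted p = 1.36e-05). Abcb1a fell in PXR-deficient livers, -0.61 ± 0.51 (limma, adjusted p = 1.47e-04). Both were set apart by number, so no likeness to a member is read from them. Of 10 genes of cholesterol synthesis, 5 have a tested probe, and 0 rose and 1 fell without CAR, 1 rose and 1 fell without PXR, and 1 rose without both. Of 6 bile acid genes, 5 were tested and none is a member, with 2 falls without CAR, 2 rises and 2 falls without PXR, and no change called without both. Of 9 circadian genes, 2 were tested, and 1 rose in CAR/PXR-deficient livers and none passed elsewhere. Among all tested probes 6.78% rose and 10.2% fell without CAR, and 19.5% and 19.5% without PXR. Without both receptors 10.6% rose and 11.9% fell.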

How the data were processed

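The deposited tables are scanner exports of 24 spotted 2-colour arrays. Per the file headers they hold foreground and background intensity values, the percent of pixels above background by 2 SD, and a flag for each of 1440 spots. No dye was swapped, so a probe's dye effect stays in each ratio and cancels between genotypes. Foreground medians were background-corrected by normexp (offset 50; limma 3.58.1, R 4.3.3). For Cy5 of CAR/PXR-deficient 6, where the default fit failed, the normexp model was refitted by maximum likelihood. Ratios were normalized by global loess (span 0.3, 4 iterations) on unflagged mouse spots, and the spots of each probe were then averaged. Probes had to be above background on at least 50% of a genotype's arrays, which left 236 of 284. All 24 arrays entered 1 limma fit in which each genotype had its own mean, with Benjamini-Hochberg adjustment over the 236 and a threshold of 0.05. The fit was also run on simulated data with independent noise per probe. These held no shift shared by the probes of an array, so they cannot speak for calls that rest on PXR-deficient 2. Channel levels are after loess and Aquantile. Alternatives were other background corrections, centrings and filters, the replicate number as a block, array weights, single arrays left out, and the authors' deposited log2 value table, whose centring is unstated (column medians -0.37 to 0.17). Named members are the 10 highest in wild type and the 10 others of lowest adjusted p in a deficient genotype, and further members are named for their group. Gene names are those of the platform table. The members and lists were chosen with earlier results of these data known.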

Additional observations from a re-analysis of the deposited data

Results flagged for a closer look

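Of 84 groups of 6 arrays, 16 held an array far from the others by Dixon's criterion, which chance meets in about 1 group in 20. PXR-deficient 2 was that array in 10. There the log2 ratio was -0.85 for Nr2c1, -0.87 for ST_Mm_121, -1.06 for Tbxas1, -0.45 for ST_Mm_095, -0.90 for Thrb, -0.75 for Cyp1a2, -0.61 for Cyp46a1, -0.62 for Thra and -0.67 for Ptgis, and the median of the 40 members was -0.52. The control spots on that array had a median of -0.98, and their part in these values was not tested. Among the CAR/PXR-deficient arrays, replicate 6 was flagged for Slco1a4, whose ratio is not given since its vehicle channel was above background on 0 of 6 arrays. There also, Cyp4b1 was at 0.11 on replicate 4, Apoa1 was at 0.29 on replicate 2, ST_Mm_037 was at -0.56 on replicate 1, Cyp2a12 was at -0.67 on replicate 1 and ST_Mm_222 was at -0.73 on replicate 1.

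The named members gave 32 differences between deficient genotypes that passed the test of the difference itself (limma). CAR-deficient minus PXR-deficient was 0.55 for ST_Mm_304, 0.32 for Nr2c1, 0.40 for ST_Mm_121, 0.36 for Tbxas1, -0.34 for Cyp2a12, 0.26 for Rxrb, 0.34 for Thrb, 0.33 for Cyp1a2, 0.26 for Cyp46a1, 0.32 for Thra and 0.29 for Ptgis (adjusted p from 0.00904 to 0.0474). Without PXR-deficient 2 this difference did not pass for Nr2c1 (0.19, adjusted p = 0.0956), Tbxas1 (0.20, 0.146), Thrb (0.22, 0.0527), Cyp1a2 (0.19, 0.0528), Cyp46a1 (0.18, 0.0734) and Ptgis (0.19, 0.0672), and that of Tbxas1 was lost under 21 of 34 alternatives, the replicate block among them (0.0536). CAR-deficient minus CAR/PXR-deficient was 0.58 for ST_Mm_304, 0.58 for Alas1, 0.40 for Cyp4b1, 0.59 for ST_Mm_037, -0.33 for ST_Mm_095, 0.41 for Cyp2a12, 0.52 for ST_Mm_222 and 0.47 for Cyp1a2 (adjusted p from 5.29e-05 to 0.0195). PXR-deficient minus CAR/PXR-deficient was 0.42 for Cyp4b1, -0.33 for Nr2c1, -0.40 for ST_Mm_121, -0.43 for Tbxas1, 0.57 for ST_Mm_037, -0.43 for ST_Mm_095, 0.76 for Cyp2a12, -0.29 for Rxrb, 0.68 for ST_Mm_222, -0.37 for Thrb, -0.32 for Cyp46a1, -0.34 for Thra and -0.30 for Ptgis (adjusted p from 1.56e-06 to 0.0192).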

How the results depend on the processing

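Counts of members that passed depended on how arrays were centred, on array weights and on single arrays. Shares of all tested probes under these settings are not given here. The counts in this section therefore describe the processing, and nothing about the members is read from them. Members lower in PXR-deficient livers, 14 in the report, numbered 0 with median centring, 0 with centring on the control probes, 1 with the values of the member rule, 7 with array weights and 1 in the authors' deposited table. Members higher in CAR-deficient livers, 6 in the report, numbered 2 with control centring, 11 with array weights and 3 in the authors' table. In CAR/PXR-deficient livers, members higher, 1 in the report, numbered 4 with background subtraction, 6 with control centring and 9 with array weights, and members lower, 3 in the report, numbered 1 with median centring and 1 in the authors' table. Members that differed between CAR-deficient and PXR-deficient livers, 23 in the report, numbered 1 with median centring, 5 with the rule's values, 1 with control centring and 1 in the authors' table. Between CAR-deficient and CAR/PXR-deficient livers the 8 became 4 and 3 with median and control centring. Between PXR-deficient and CAR/PXR-deficient livers the 24 became 4 with median centring, 13 with the rule's values, 7 with control centring and 7 in the authors' table. The cause was not tested. Control centring put the median of all probes at -0.14, -0.12, 0.10 and -0.12 in wild type, CAR-, PXR- and CAR/PXR-deficient livers. The members' median in PXR-deficient livers was then 0.01, still below that of all probes.

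With 1 array left out, members higher in CAR-deficient livers numbered 4 to 10, lower in PXR-deficient livers 1 to 17 and higher in CAR/PXR-deficient livers 1 to 4, and 7 to 26 differed between CAR-deficient and PXR-deficient livers. Without PXR-deficient 2 the count was 1 for members lower in PXR-deficient livers and 7 for that difference, which was 13 and 15 without CAR-deficient replicate 1 and 4. Of 53 calls on named members, 10 held under all 34 alternatives, 43 were lost under at least 1, and none changed sign.

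Replicate numbers do not pair the arrays: same-numbered arrays of different genotypes had a median correlation of deviations of -0.01, and 2 of 24 arrays correlated best with their own number. With the replicate block, 5 members were higher in CAR-deficient and 14 lower in PXR-deficient livers, and 16 differed between these genotypes. A slide or scan block was not run, since the files used here name none.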
